A study of Mus musculus with 36 samples.

Results

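The genes described here encode collagens and other extracellular matrix proteins of fibroblasts, namely Col1a1, Col1a2, Col3a1, Col5a2, Col6a3, Fn1, Postn, Fbn1, Lox and Dcn. They were taken by name, 10 of the 22350 protein-coding genes on the autosomes and chromosome X, and each was placed in a replication timing (RT) domain by the annotated start of the gene. RT had been measured by Repli-seq, in which cells labelled with a nucleotide analogue are sorted into early and late S phase and the newly made DNA of each fraction is sequenced. The series held 36 libraries in 7 groups and asked how loss of RIF1, a factor that sets replication timing, and depletion of the MCM helicase change RT in B cells. The 3 domain maps analysed here covered control cells. The CH12 shLacZ map came from CH12 cells, a mouse B lymphoma line grown with IL4, CD40 and TGF beta stimulation, with Rif1 intact, that had been infected with a lentivirus expressing a short hairpin RNA against LacZ as the infection control. The priB WT map came from activated primary splenic B cells of wild-type mice. These maps rested on 8 libraries, 2 early and 2 late for each. The third map was named for wild-type mouse embryonic fibroblasts (MEF WT) and was tied to no sample by the labels, so the age, number and culture of those cells are not given here. Groups with Rif1-/-, Rif1 heterozygous or shMcm6 cells were not analysed here.

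Fibrillar collagens assemble from chains encoded at separate loci, and fibroblasts are their main source in connective tissue. Fibronectin, fibrillin and periostin build the meshwork around the fibrils, and B cells are not known as producers of this matrix. Gene-rich chromatin tends to replicate early in S phase, large domains switch their timing between cell lineages, and an early domain is not by itself evidence that a gene in it is transcribed. The maps give for each 20 kb window an early (E), middle (M) or late (L) state and no RT value or expression value, so neither the cell labels nor the activity of these genes could be checked against marker transcripts. Each map merged the replicates of its condition. No replicate spread exists for a state, an edge or a length, and no test between maps was possible. States had been called within each map, so E in one map need not mark the same RT value as E in another. E states covered 22.7% of the mapped genome in CH12, 28.6% in priB and 30.7% in MEF, and L states covered 49.8%, 39.0% and 30.6%.

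Most of the 10 genes lay in later states in the B cell maps than in the MEF map. In CH12 cells, 1 gene start was E, 2 were M and 7 were L. Over all protein-coding genes, 50.6% of starts were E and 22.1% were L in that map. In priB cells, 1 was E, 6 were M and 3 were L, beside 58% E and 12.9% L over all coding genes. In the MEF map, 9 were E, 1 was M and 0 were L, beside 58.6% E and 11.9% L over all. Thus 9 of 10 starts had an earlier state in MEFs than in CH12 cells, beside 23.1% of all coding starts. Likewise 8 of 10 had an earlier state in MEFs than in priB cells, beside 13.2%. A start that is E in a B cell map cannot be earlier in MEFs. Such starts made up 50.6% of all coding starts in CH12 and 58% in priB, but 1 of the 10 in each. The 23.1% and 13.2% were therefore not matched for B cell state. None of the 10 was later in MEFs than in either B cell map. Of all coding starts, 6.81% were later in MEFs than in CH12 and 11.8% later than in priB. The 7 starts that were L in CH12 and the 3 that were L in priB could not be later. E in the MEF map and in neither B cell map were 8 of the 10 starts and 7.6% of all coding starts, a share that was also not matched for B cell state. The B cell maps also differed from each other, with 4 of 10 starts earlier in priB than in CH12 cells, beside 18.8% of all coding starts. A start that is E in CH12 cannot be earlier in priB, and such starts were 50.6% of all but 1 of the 10. The 18.8% was therefore not matched for CH12 state, and no excess of the 10 genes is read from it. The genes are a short list chosen for what they encode, with earlier results of these data known. Col3a1 and Col5a2 share a domain in every map, so the 10 genes stood for 9 separate domains.

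**Figure D1:**
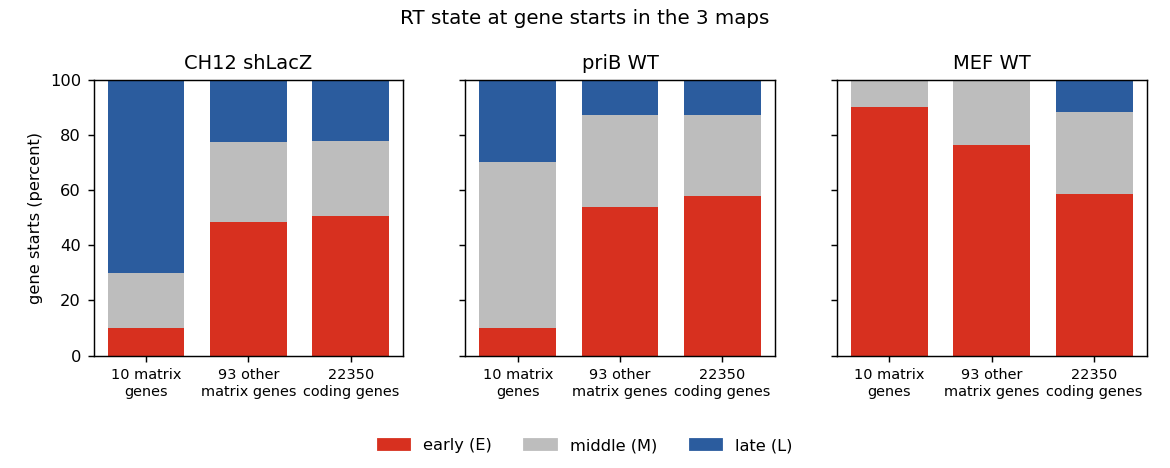
Stacked bars give the percent of gene starts in E, M and L states in the CH12 shLacZ, priB WT and MEF WT maps, for the 10 genes, for 93 other matrix genes and for all 22350 protein-coding genes. The L part of the left bar is 7 of 10 in CH12, 3 of 10 in priB and absent in MEFs, while the bars for the 93 other genes are near those for all coding genes in the B cell maps.

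Among the 10 genes there were 5 combinations of states, written below in the order CH12, priB, MEF. Col3a1, Col5a2 and Postn were L/L/E, a combination held by 97 coding genes or 0.434% of all. Col1a2, Fn1 and Lox were L/M/E, held by 314 coding genes or 1.4%. Col6a3 and Fbn1 were M/M/E, held by 1277 or 5.71%. Dcn was L/M/M, held by 1255 or 5.62%, and Col1a1 was E/E/E, the most frequent combination, held by 9804 genes or 43.9%. The change between B cell and fibroblast maps was therefore of full range, from L in both to E, in 3 of the 10 genes.

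The promoters of 5 of the 10 genes are printed to show the sequence at starts that are E in MEFs and later in B cells. Each run gives the 120 bases before the RefSeq start (GRCm38.p6 table), 5′ to 3′ on the strand of the gene, and was placed on NCBIM37, the assembly known as mm9, by an exact match. Capitals mark CCAAT (or ATTGG on the other strand) and TATAAA (or TTTATA on the other strand).
Col3a1 (L/L/E), chr1:45368263-45368382, plus strand: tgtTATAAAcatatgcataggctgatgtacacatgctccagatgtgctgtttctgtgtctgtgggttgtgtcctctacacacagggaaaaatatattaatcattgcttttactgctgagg
Postn (L/L/E), chr3:54164909-54165028, plus strand: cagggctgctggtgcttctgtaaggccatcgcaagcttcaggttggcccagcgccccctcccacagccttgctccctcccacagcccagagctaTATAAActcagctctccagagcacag
Col1a2 (L/M/E), chr6:4455498-4455617, plus strand: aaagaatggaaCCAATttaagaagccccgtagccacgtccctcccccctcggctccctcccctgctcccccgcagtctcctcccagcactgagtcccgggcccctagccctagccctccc
Col6a3 (M/M/E), chr1:92740549-92740668, minus strand: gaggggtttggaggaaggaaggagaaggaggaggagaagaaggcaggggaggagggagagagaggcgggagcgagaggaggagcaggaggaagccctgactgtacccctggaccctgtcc
Fbn1 (M/M/E), chr2:125332175-125332294, minus strand: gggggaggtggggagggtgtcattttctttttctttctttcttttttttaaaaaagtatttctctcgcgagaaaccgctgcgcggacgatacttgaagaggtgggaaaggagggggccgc

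These promoters varied in base composition. The number of CpG dinucleotides in the 120 bases was 0 for Col3a1, 2 for Postn, 5 for Col1a2, 2 for Col6a3 and 7 for Fbn1, beside a median of 3 over 27025 RefSeq genes. GC content ranged from 40.0% for Col3a1 to 65.8% for Col1a2. The letters TATAAA or TTTATA occurred in the promoters of Postn, 26 bases before the start, and Col3a1, 117 bases before it, and in 6.76% of all RefSeq promoters of that length. CCAAT or ATTGG occurred in that of Col1a2, 109 bases before the start, and in 22.1% of all. Neither motif was found in the windows of Col6a3 and Fbn1. The RefSeq starts lay 0 bases from the annotated start for Col3a1, 2 for Postn, 19 for Col6a3, 804 for Col1a2 and 1555 for Fbn1, distances far below the 20 kb window.

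Type I collagen, the main fibril of skin, bone and tendon, is a trimer of the products of Col1a1 and Col1a2. Their loci had unlike timing in B cells. Col1a1 (chr11:94797538-94814356, plus strand) was E in all 3 maps, in a domain of 2240 kb in CH12, 5620 kb in priB and 5660 kb in MEF cells. Its start lay 1038, 1098 and 1178 kb from the nearest edge, deep inside the domain each time. Every one of the 51 windows within 500 kb of it was E in each map, and the domain was gene-dense, with 55, 155 and 153 coding gene starts. The 10 other coding genes that start within 200 kb were E in all 3 maps as well. Col1a2 (chr6:4454814-4491543, plus strand) was L in CH12, in a domain of 2020 kb with the edge 565 kb away. In priB cells it was M, in a domain of 1200 kb between L domains, with the edge 115 kb away. In MEFs it was E, in a domain of 500 kb, the shortest E domain among the 10 genes, with M on both sides. The nearest E domain to Col1a2 was 3925 kb away in CH12 and 3725 kb in priB cells. The median distance was 1654 kb for all L starts in CH12 and 379 kb for all M starts in priB, so the gene lay farther from E chromatin than most starts of its state in both B cell maps. The fibroblast E domain of Col1a2 was 100% L in CH12, and 76% M and 24% L in priB, and all 4 of its coding starts had the combination L/M/E, among them Casd1, 96.0 kb from Col1a2.

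Col3a1 encodes the type III chain, which forms fine fibrils with type I collagen, and Col5a2 a type V chain, found inside such fibrils. The genes lie next to each other on chromosome 1 (chr1:45368383-45406551, plus strand, and chr1:45431166-45560127, minus strand), with 24.6 kb between them and their starts 192 kb apart. Both were L in CH12, in a domain of 7700 kb, the longest domain found at any of the 10 genes in any map. Their starts lay 1068 and 1260.1 kb from its edge and 6428 and 6620 kb from the nearest E domain, while the upper quartile of that distance over all L starts in CH12 was 3145 kb. In priB cells both were L in a domain of 1260 kb, with E 1068 kb from Col3a1 and 1260.1 kb from Col5a2. In MEFs they shared an E domain of 840 kb, with edges 168 kb from Col3a1 and 360.1 kb from Col5a2. The E domain of MEFs was 100% L in CH12, and 90.5% L and 9.52% M in priB, so it sat inside late chromatin in both B cell maps. It held 5 coding gene starts, of which 4 were L/L/E. Of the 9 fibroblast domains, this one and that of Col1a2 were wholly L in CH12, and this one had the highest L share in priB.

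Col6a3 (chr1:92663435-92740529, minus strand) encodes a chain of type VI collagen, which forms beaded filaments around cells. It stood close to E chromatin in both B cell maps. It was M in CH12, in a domain of 700 kb between E domains, with E 179 kb away. In priB cells it was M in a domain of 1160 kb, with E 99.5 kb away on the side before the start. In MEFs the start was E, 1061 kb from the edge of a domain of 4100 kb, and all 51 windows within 500 kb were E. Of those windows, 17 were E and 34 were M in CH12, and 21 were E and 30 were M in priB. Of the coding genes that start within 200 kb, Mlph and Gm9991 had the same M/M/E states, while Prlh, Rab17 and Lrrfip1 were M/E/E.

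**Figure D2:**
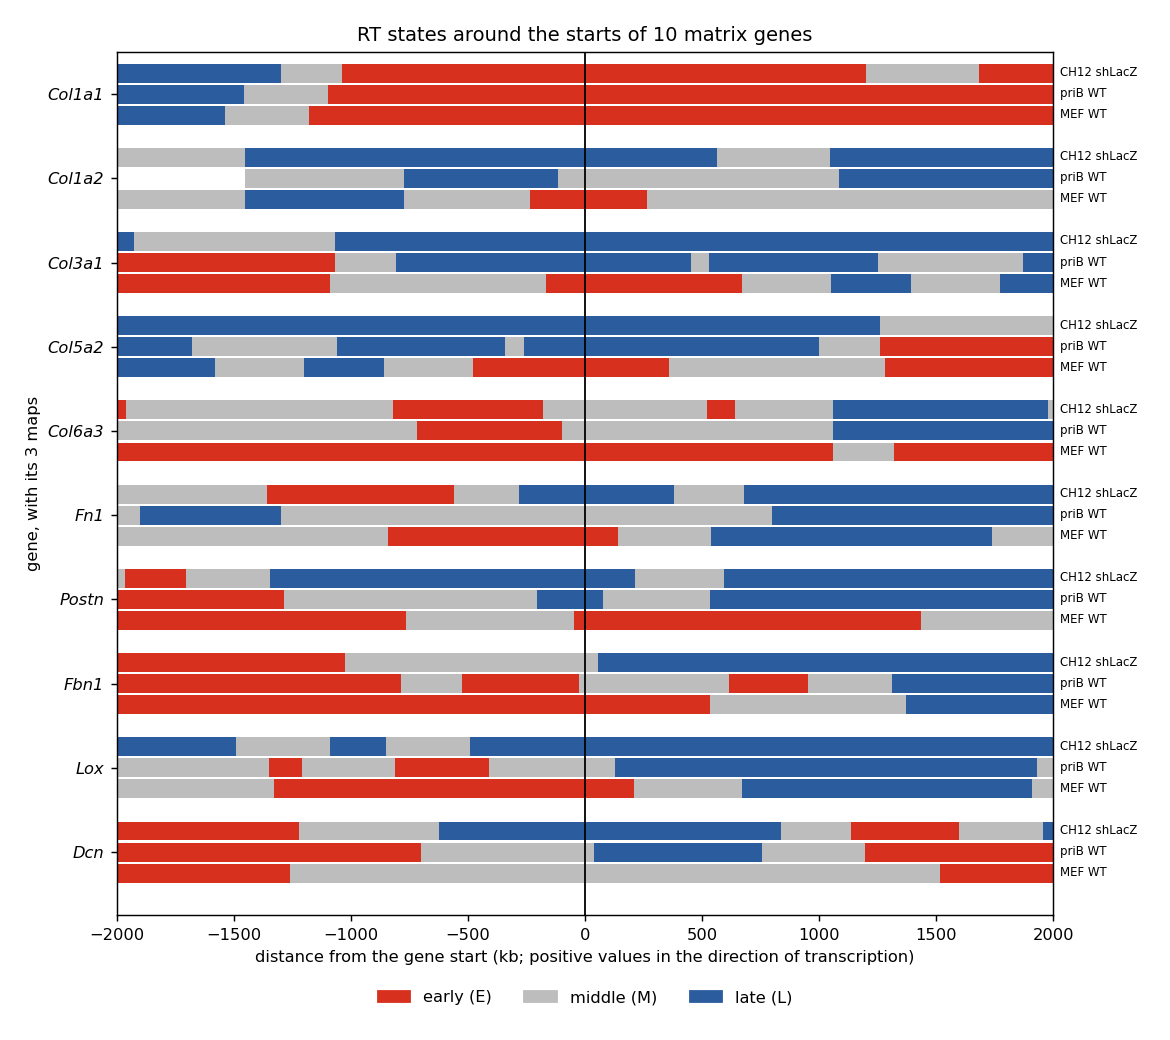
Each gene has 3 horizontal tracks (CH12 shLacZ, priB WT and MEF WT) of E, M and L states from 2000 kb before to 2000 kb after its start, in kb along the direction of transcription, with a vertical line at the start. At Col3a1 and Col5a2 the line crosses L, L and E, at Col1a1 it crosses E in all 3, and at Fbn1 and Dcn it passes near an edge in a B cell map. White marks sequence without a state.

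Fn1 (chr1:71632094-71699774, minus strand) encodes fibronectin, an adhesive glycoprotein that binds cells and collagen. It was L in CH12, in a short L domain of 660 kb with the edge 280.2 kb away and E 560.2 kb away. In priB cells it was M in a domain of 2100 kb, 799.8 kb from an edge, and all 51 windows within 500 kb were M. In MEFs it was E, in a domain of 980 kb with the edge 139.8 kb downstream of the start. The nearest E domain was 2260 kb away in priB, and Fn1 alone among the 9 genes that were not E in B cells had its nearest E domain farther away in priB than in CH12. Its fibroblast E domain was 28.6% E, 28.6% M and 42.9% L in CH12 and 100% M in priB. The neighbouring starts of Atic and Apol7d within 200 kb were L/M/E as well.

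Postn (chr3:54165031-54194961, plus strand) encodes periostin, a matricellular protein of fibroblasts and bone lining. It was L in CH12, in a domain of 1560 kb with the edge 215 kb away. In priB it was L in a domain of 280 kb, the shortest domain at any of the 10 genes, with the nearest edge 74.97 kb after the start and M on both sides. Postn was the only coding start in that small L domain. In MEFs it was E, in a domain of 1480 kb, with the edge 45.0 kb before the start. The fibroblast domain was 74.3% L and 25.7% M in CH12 and 68.9% L and 31.1% M in priB, with 0 windows E, and 7 of its 13 coding starts were L/L/E. The start of Postn thus lay within 3 windows of an M domain in MEFs.

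Fbn1 (chr2:125126330-125333729, minus strand) encodes fibrillin-1, the backbone of microfibrils, and at 207 kb was the longest of the genes. It lay on edges in both B cell maps. In CH12 the start was M with an L domain beginning 53.7 kb downstream, so that 25.9% of the gene body was M and 74.1% was L. In priB the whole gene was M, with an E domain ending 26.3 kb before the start. In MEFs the whole gene was E, in a domain of 4380 kb, 534 kb from the edge. Cep152 and Eid1, which start 117 and 165 kb away, were M/E/E, and Gm9913 was M/M/E. Taken at the midpoint or the end of the gene, Fbn1 was L in CH12.

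Lox encodes lysyl oxidase, which cross-links collagen and elastin. The gene lies at chr18:52675723-52689521 on the minus strand. It was L in CH12, in a domain of 2560 kb with the edge 490.5 kb away and E 2549.5 kb away. In priB cells it was M in a domain of 540 kb between an L and an E domain, with the L domain starting 129.5 kb downstream and E 410.5 kb away. In MEFs it was E, in a domain of 1540 kb with the edge 209.5 kb away. Of that fibroblast domain, 61.0% was L and 39.0% M in CH12, and 33.8% was E, 61.0% M and 5.19% L in priB, a mixed picture unlike that at Col3a1. Srfbp1, Zfp474, 1700034E13Rik and Gykl1, which start within 200 kb, had the same L/M/E states, and Ftmt was L/L/E.

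Dcn (chr10:96942245-96980777, plus strand) encodes decorin, a small proteoglycan that binds collagen fibrils. It was the one gene of the list that was not E in MEFs. There it was M, in a domain of 2780 kb flanked by E on both sides, and all 51 windows within 500 kb were M. The nearest E domain was 1262 kb away in MEFs, 1138 kb in CH12 and 702 kb in priB. In CH12 it was L in a domain of 1460 kb, and in priB it was M with an L domain beginning 37.8 kb downstream, so that 2.02% of the gene body was L. Lum, Kera and Epyc, proteoglycan genes of the same family that start 85.9, 128 and 164 kb from Dcn, were all L/L/M. The 4 proteoglycan genes thus had equal states in CH12 and in MEFs, and differed in priB, where the edge lay between the start of Dcn and the others.

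In priB cells 6 of the 10 gene starts lay near a domain edge. RT had been smoothed over a span of 300 kb, so an edge is blurred over about 150 kb on each side. Of the 10 starts, 1 in CH12, 6 in priB and 2 in MEFs lay under 150 kb from an edge. Over all coding starts the shares were 29.1%, 28.1% and 22.1%. The 6 in priB were Col1a2, Col6a3, Postn, Fbn1, Lox and Dcn, 5 of them M in that map. The median edge distance of the 10 genes was 528 kb in CH12, 122 kb in priB and 297 kb in MEFs, beside 304, 313 and 415 kb over all coding starts. These backgrounds were not matched for state, and M starts lie nearer to edges. Among all coding starts in priB, the median edge distance was 174 kb for M, 437 kb for E and 335 kb for L. Of the 10 genes, 6 were M in that map. M starts there also sat in shorter domains, with a median of 740 kb against 2100 kb for E and 1960 kb for L. Domains over the genes had a median length of 1790, 1180 and 1510 kb. With the 4 genes left out that lay within 100 kb of an edge in priB or MEF cells (Col6a3, Postn, Fbn1 and Dcn), 5 of 6 starts were earlier in MEFs than in priB cells.

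**Figure D3:**
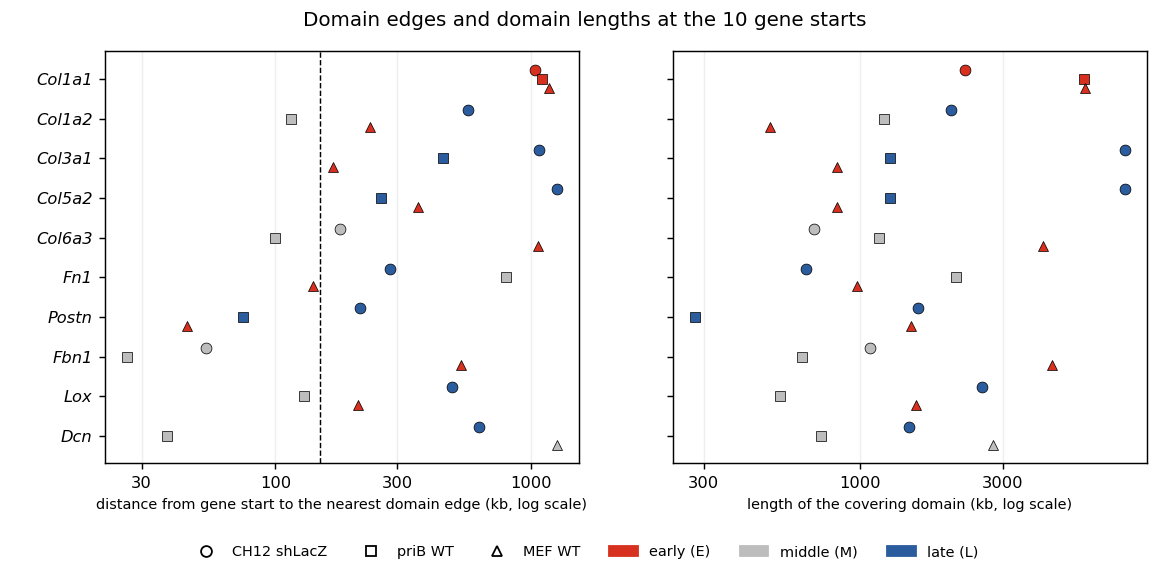
Points give, for each gene and map (circle CH12 shLacZ, square priB WT, triangle MEF WT), the distance from the gene start to the nearest domain edge (left) and the length of the covering domain (right), in kb on log axes and coloured by state. The dashed line stands at 150 kb, and 6 of the 10 priB squares lie left of it.

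Most of the genes stood in DNA of low GC content. The median GC content of the 1 Mb around the start was 40.8% for the 10 genes and 44.1% for all coding genes. It was 38.2% at Col3a1, 38.5% at Col5a2, 38.3% at Dcn, 39.9% at Col1a2, 40.2% at Lox, 41.4% at Fn1 and 41.5% at Postn. These 7 genes, which are those L in CH12, lay below the median of 42.0% of M starts in the MEF map, although 6 of them were E there. The median of all E starts in the MEF map was 46.1%. Starts with the combination L/L/E had a median of 41.3% and L/M/E starts 42.6%. Col3a1, Col5a2, Col1a2, Lox and Dcn lay below the lower quartile of all coding genes with their own combination, which was 40.2% for L/L/E, 41.3% for L/M/E and 40.2% for L/M/M. The starts of Col3a1 and Col5a2 are 192 kb apart, so their 1 Mb windows were largely the same DNA and not separate measurements. Fbn1 had 42.9%, Col6a3 47.0% and Col1a1 49.0%. The genes were also longer than most, with a median of 38.4 kb against 15.4 kb for all coding genes.

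**Figure D4:**
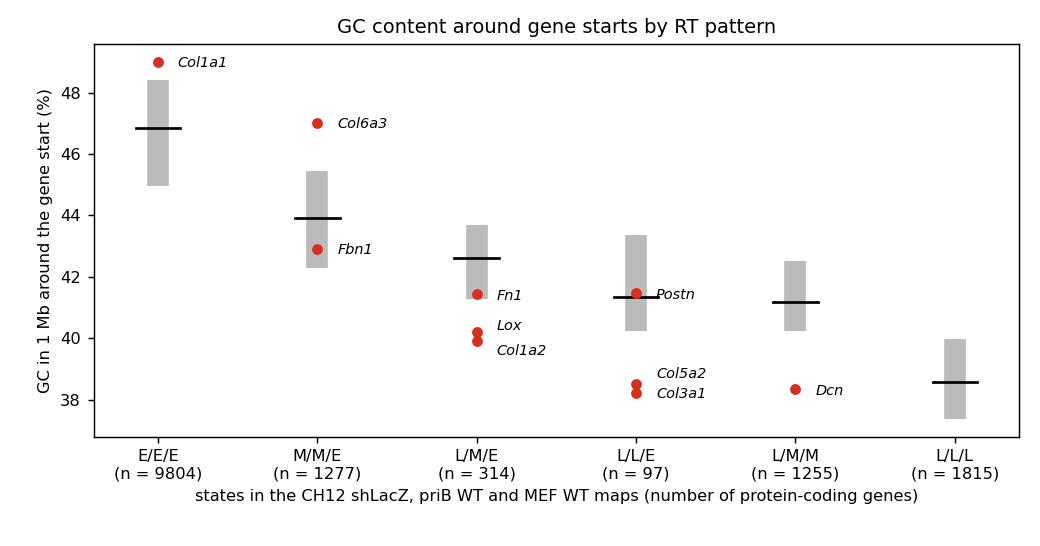
Points give the GC content (%) of the 1 Mb around each of the 10 gene starts, placed by the states of the gene in the CH12 shLacZ, priB WT and MEF WT maps. Grey bars span the lower to the upper quartile and black lines mark the median of all coding genes with the same states, from 46.8% for E/E/E to 38.6% for L/L/L. Col3a1 and Col5a2, whose 1 Mb windows largely overlap, lie at the level of the L/L/L genes.

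The late states of the list in CH12 cells were not the rule among other matrix genes. A further 93 matrix genes were looked up by name. Of these, 45 were E, 27 M and 21 L in CH12, 50 were E, 31 M and 12 L in priB, and 71 were E, 22 M and 0 L in MEFs. E in all 3 maps were 42 of them, beside 43.9% of all coding genes. Earlier in MEFs than in CH12 cells were 42 and than in priB cells 35, beside 23.1% and 13.2% of all coding genes. Later in MEFs were 1 and 3, beside 6.81% and 11.8%. E in MEFs only were 22 of 93 or 23.7%, above the 7.6% of all coding genes and below the 8 of 10 listed genes.

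The counts by role were as follows, from short lists that were not tested against each other, beside 43.9% of all coding genes E in all maps and 7.6% E in MEFs only. Among 16 genes of collagen processing and cross-linking, 12 were E in all maps, among them Loxl1, Loxl2 and Loxl3, relatives of Lox, and Serpinh1, the collagen chaperone. Loxl4, a further relative of Lox, was M/M/E. Of 15 elastic fibre genes, 9 were E in all maps, including Eln, which encodes elastin, while Fbn2, the close relative of Fbn1, was L/L/M. Of 5 type VI collagen genes other than Col6a3, 3 (Col6a1, Col6a2 and Col6a5) were M/M/E as Col6a3 was. Col6a1 and Col6a2 are both on chromosome 10, and genes of these lists were counted singly whether or not they share a domain. Of 13 matricellular and adhesive glycoprotein genes, 7 were E in MEFs only, with Tnc, Thbs1, Thbs2 and Tgfbi M/M/E and Spp1, Ctgf and Cyr61 L/M/E. Of 7 fibrillar collagen genes, Col24a1 alone was L/L/E, and Col2a1, Col5a3 and Col11a2 were E in all 3 maps. Among 6 basement membrane collagen genes, Col4a3 and Col4a4 were L/M/E and 0 were E in CH12. Of 10 small leucine-rich proteoglycan genes, the family of Dcn, 5 were E in all maps and 1 was E in MEFs only. The 4 that were M in MEFs included Lum, Kera and Epyc, the neighbours of Dcn. Of 9 fibril-associated collagen genes, 4 were E in all maps and 1 was E in MEFs only, and of 12 further collagen genes 5 were E in all and 3 in MEFs only. Of 8 B cell identity genes, 8 were E in priB, 6 in CH12 and 5 in MEFs, beside 58%, 50.6% and 58.6% of all coding genes, and 0 were E in MEFs only, beside 7.6%.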

How the data were processed

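Repli-seq libraries of early and late S phase were made from mouse B cells. Per the study's methods, the authors trimmed reads with Trim Galore 0.6.5, aligned them to mm9 with BWA 0.7.17, filtered them with SAMtools 1.9, merged replicates, took log2 of early over late reads in 20 kb windows, smoothed them by loess over 300 kb and called 3 states with a hidden Markov model. BEDTools 2.29.2 stands in the submitters' processing notes. The deposited files hold domain start, end and state number, with no read counts and no RT values, so read depth behind a state is unknown and smoothing blurs edges.

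State numbers were named as the gene list's rule gives them (CH12 and priB: 2 E, 1 M, 0 L; MEF: 0 E, 2 M, 1 L), and were checked on the files. E and L domains touched in 0 places in each map, gene density and GC content fell from E to M to L, and domains ran to the mm9 end of each of the 20 chromosomes. Genes came from GENCODE M1. Coding genes, 22350 of 37252, were placed by their start on their own strand. The 10 genes and the comparison lists were chosen with earlier results of these data known, so they are described by counts beside all coding genes, with no test. Named were all 10 genes, coding genes starting within 200 kb of them in the same MEF domain (for Col1a1 none singly), and other matrix genes that were L/L/E or L/M/E. Other matrix genes with further states were named after their values were seen. Of 93 other matrix genes all matched, Col26a1 through a RefSeq synonym. Promoters of 5 genes came from the RefSeq table. Look-ups recovered 100% of 500 positions on simulated domains. Python 3.11.15, numpy 2.4.6 and matplotlib 3.10.9 were used. Alternatives placed genes by midpoint, end, body or the 20 kb windows within about 150 kb on each side of the start. Others joined domains under 100 kb or left out genes within 100 kb of an edge.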

Additional observations from a re-analysis of the deposited data

How the results depend on the processing

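Counts of the 10 genes by state and by direction between maps were recomputed with the gene midpoint, gene end and gene body. They were also recomputed with the windows within about 150 kb on each side of the start, and with domains under 100 kb joined. Counts by direction were also taken without genes within 100 kb of an edge, and median domain lengths and edge distances only with short domains joined. Counting Col3a1 and Col5a2 once was chosen after seeing the data. In all, 83 of 87 recomputed values for the 10 genes stayed within 1.5 times the reported value. Part of that agreement was fixed in advance. The shortest domain at any of the 10 genes was 280 kb, so joining domains under 100 kb could not change their states. The counts by state and direction under that setting are among the 83. The count of M starts in CH12 was 1 in place of 2 with the gene midpoint, the gene end or the state of most of the gene body, because Fbn1 became L. Starts earlier in MEFs than in priB numbered 5 in place of 8 without genes within 100 kb of an edge, where only 6 genes remained. With gene ends, Dcn became L in priB and 9 starts were earlier in MEFs than in priB. With Col3a1 and Col5a2 counted once, 8 of 9 starts were earlier in MEFs than in CH12 and 7 of 9 than in priB. Shares over all genes depended on the gene set: with all gene types, 44.8% of starts were E in CH12, 51.7% in priB and 51.8% in MEFs. No paired analysis was possible because the replicates were merged into 1 map for each condition. For the same reason no library could be left out, no state has an error, and read depth could not be weighed.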
